A study of Mus musculus with 6 samples.

Results

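*Meg3*, *Malat1*, *Snhg11* and *Miat* are 4 of the 24453 gene rows in the deposited table of this study of mouse visual cortex. They are genes of long noncoding RNAs, transcripts that are spliced or capped like messenger RNA but carry no long open reading frame. These 4 were chosen by earlier results on the same libraries, because their levels differed between libraries whose titles carry different code numbers. Each was highest in the libraries of 1 code in both genotypes, at 2.16 to 3.28 times its level in the lowest code. Every statement about those codes is a description without a test. Between genotypes, none of the 4 passed the test. The RNA was taken from whole tissue, so the nuclear location these transcripts are known for in neurons could not be checked here.

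The study compared *Chrdl1* knockout mice (KO, 3 libraries) with wild-type mice (WT, 3 libraries), all of them male, of the C57BL/6J strain and at postnatal day 14. The product of *Chrdl1*, chordin-like 1, is released by astrocytes and blocks bone morphogenetic proteins. All mice had been perfused with paraformaldehyde before the cortex was dissected, and libraries came from a stranded messenger RNA kit. The labels give neither the design of the knockout allele nor whether each library is a separate animal, so p-values reflect only how these libraries spread, which may be technical. The library titles join the genotype to a code, and each of the 3 codes is shared by 1 KO and 1 WT library: KO1011 with WT1011, KO1012 with WT1012, and KO1013 with WT1013. The labels do not say what a code stands for.

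Levels are given in FPKM, a fragment value corrected for the length of the exons and for library depth. They are relative to the rest of each library, and compare genes only where the kit captured their RNAs alike. Estimated depth was 22.7 to 31.9 megareads in KO libraries and 27.5 to 38.2 megareads in WT libraries. *Chrdl1* itself averaged 0.161 ± 0.0364 FPKM in KO and 3.44 ± 0.299 FPKM in WT libraries (SD, n = 3 each; limma, adjusted p = 0.000489), and it was the single gene called between genotypes at an adjusted p under 0.05. All 10 cortical excitatory neuron markers reached a mean of 1 FPKM, among them *Slc17a7* and *Camk2a*. Markers of some cell types and neighbouring tissues differed between libraries. The 10 striatal neuron markers summed to 312, 135 and 131 FPKM in KO1011, KO1012 and KO1013, against 295, 267 and 316 FPKM in WT1011, WT1012 and WT1013. The 10 oligodendrocyte markers summed to 2810, 2200 and 1440 FPKM in the KO libraries, against 2450, 3080 and 1830 FPKM in the WT libraries of the same codes. The choroid plexus marker *Ttr* stood at 310 FPKM in KO1012 and 150 FPKM in WT1013, and at 2.88 to 5.46 FPKM elsewhere. The 5 blood cell markers summed to 43.8 FPKM in KO1011 and to 8.81 to 13.0 FPKM in the other libraries.

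The 4 RNAs work in different ways. *Meg3* is expressed from the maternal chromosome of the imprinted Dlk1-Dio3 domain and has been studied as a partner of Polycomb repressive complex 2. *Malat1* gathers in nuclear speckles, the stores of splicing factors, and its mature 3′ end is a triple helix rather than a conventional poly(A) tail. *Miat*, also called Gomafu, forms nuclear foci in neurons and binds the splicing regulators SF1, CELF3 and QKI. *Snhg11* is a small nucleolar RNA host gene with strong expression in neurons.

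The 4 genes lie on different chromosomes. On mm10, *Meg3* (NR_027652) spans chr12:109540996-109571729 on the plus strand, and the 1903 exon bases of the counted model make up 6.19% of that span. *Malat1* (NR_002847) spans chr19:5795690-5802671 on the minus strand, a single exon of 6981 bases. *Snhg11* (NM_175692) spans chr2:158375638-158386145 on the plus strand with 5857 exon bases, and the deposited table classes it as protein-coding where the RefSeq gene table has it as a long noncoding RNA. *Miat* (NR_003718) spans chr5:112213228-112228948 on the minus strand with 8709 exon bases.

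The promoters of the 4 genes, which sit at separate loci, are set side by side here to describe their sequence. The 4 were chosen for varying between codes, and whether they have a common control was not tested. Each stretch runs from 250 bases before to 50 bases after the RefSeq start on GRCm38.p6, 5′ to 3′ on the strand of the gene. Capitals mark matches, on either strand, to 5 motifs searched by letters. The cAMP response element was searched as TGACGTCA, and its shorter core as TGACG. The core promoter box bound by the TATA-binding protein was searched as TATAAA, the box bound by the factor NF-Y as CCAAT, and the GC box bound by SP1 as GGGCGG. The stretches are chr12:109540746-109541045 for *Meg3*, chr19:5802623-5802922 for *Malat1*, chr2:158375463-158375762 for *Snhg11* and chr5:112228899-112229198 for *Miat*.
Meg3: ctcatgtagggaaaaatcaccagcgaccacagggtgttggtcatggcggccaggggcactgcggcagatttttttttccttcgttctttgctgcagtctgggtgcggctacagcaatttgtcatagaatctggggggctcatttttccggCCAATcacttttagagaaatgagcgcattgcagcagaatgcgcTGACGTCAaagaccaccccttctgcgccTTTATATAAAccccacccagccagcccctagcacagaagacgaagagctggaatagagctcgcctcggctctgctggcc
Malat1: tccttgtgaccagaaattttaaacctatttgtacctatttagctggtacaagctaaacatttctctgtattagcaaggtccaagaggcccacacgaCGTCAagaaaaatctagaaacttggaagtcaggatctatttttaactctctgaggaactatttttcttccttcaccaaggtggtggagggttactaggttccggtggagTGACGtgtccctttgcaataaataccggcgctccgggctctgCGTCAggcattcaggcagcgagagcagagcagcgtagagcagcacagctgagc
Snhg11: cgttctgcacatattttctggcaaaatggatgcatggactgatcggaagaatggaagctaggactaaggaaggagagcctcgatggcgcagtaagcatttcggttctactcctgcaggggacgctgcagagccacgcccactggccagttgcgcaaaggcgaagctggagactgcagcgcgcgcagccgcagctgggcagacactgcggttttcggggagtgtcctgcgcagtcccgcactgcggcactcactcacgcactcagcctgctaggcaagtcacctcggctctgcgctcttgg
Miat: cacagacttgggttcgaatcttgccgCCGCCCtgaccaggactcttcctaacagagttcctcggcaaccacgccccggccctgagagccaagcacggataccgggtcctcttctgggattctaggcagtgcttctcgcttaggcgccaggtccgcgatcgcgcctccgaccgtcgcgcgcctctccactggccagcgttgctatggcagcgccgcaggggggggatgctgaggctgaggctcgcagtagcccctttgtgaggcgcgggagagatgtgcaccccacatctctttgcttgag
RefSeq lists 2 promoters for *Meg3*, and the one at the start used in the deposited table is shown, while for *Snhg11* the RefSeq start lies 75 bases from that of the deposited table.

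No motif of the 5 was found in all 4 windows. *Meg3* held TGACGTCA at -57, counted from the start, a motif found in 1.79% of the 32851 RefSeq promoter windows of the same length. It also held TATAAA at -25 on the gene's strand and, overlapping it, at -29 on the other strand (13.6% of windows), and CCAAT at -100 (37.4%). *Malat1* held the shorter TGACG 3 times, at -45 on its own strand and at -154 and -3 on the other (20.8% of windows), a core that also lies within the longer *Meg3* match on both strands. *Miat* held GGGCGG at -224 on the other strand (35.7% of windows), and the *Snhg11* window held none of the 5. Base composition differed as well. Windows of *Miat* and *Snhg11* had 64.3% and 60.0% G or C with 25 and 21 CG dinucleotides, *Meg3* had 53.7% with 13, and *Malat1* had 47.0% with 10, beside medians of 52.7% and 7 over all windows. These matches describe letters in a window and say nothing about factors bound there.

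*Meg3* stood at 169 FPKM in KO1011, 52.4 FPKM in KO1012 and 77.7 FPKM in KO1013, against 201 FPKM in WT1011, 80.9 FPKM in WT1012 and 105 FPKM in WT1013. Both libraries of code 1011 were above the other 4, and the genotypes overlapped. Within each code the KO library was the lower.

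*Snhg11* followed the same order, with 135 FPKM in KO1011, 46.7 FPKM in KO1012 and 65.5 FPKM in KO1013, against 153 FPKM in WT1011, 70.98 FPKM in WT1012 and 83.3 FPKM in WT1013. Again the code 1011 libraries were highest, the code 1012 library was lowest within each genotype, and the KO library was the lower of each pair.

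*Malat1* stood at 19.4 FPKM in KO1011, 7.86 FPKM in KO1012 and 12.2 FPKM in KO1013, against 25.5 FPKM in WT1011, 9.24 FPKM in WT1012 and 14.0 FPKM in WT1013. Its order over codes was that of *Meg3*, and each KO library lay below the WT library of its code.

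*Miat* differed from the others in its genotype direction at code 1011. It stood at 39.7 FPKM in KO1011, 12.1 FPKM in KO1012 and 18.3 FPKM in KO1013, against 32.1 FPKM in WT1011, 14.0 FPKM in WT1012 and 19.5 FPKM in WT1013. KO1011 was its highest library, whereas WT1011 was the highest for *Meg3*, *Snhg11* and *Malat1*.

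**Figure D1:**
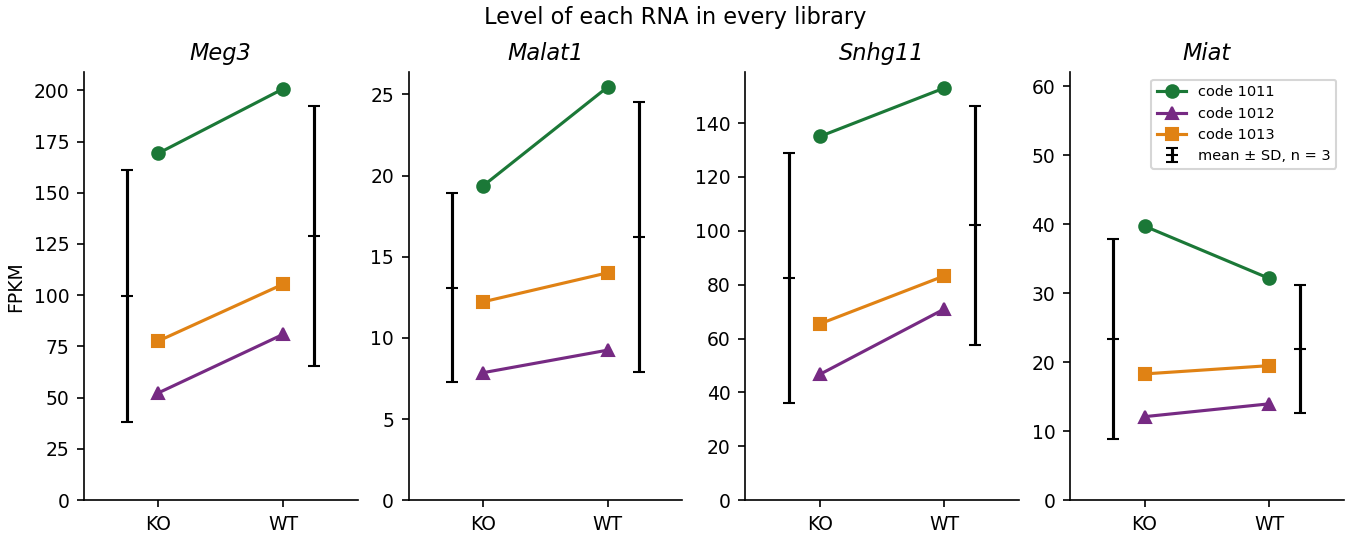
Level in FPKM (linear axis from 0) of each RNA in the KO libraries (left) and the WT libraries (right). Colours and symbols mark the title code, lines join libraries of the same code, and black bars give the mean ± SD of 3 libraries. The green points of code 1011 lie highest and the purple points of code 1012 lowest in every panel, and the lines run upward from KO to WT except that of *Miat* at code 1011.

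Read counts behind these levels ranged from 1751 to 24618 per RNA and library, which puts the counting error at 2.4% or less. *Meg3* was the highest of the 4 per length in every library, followed by *Snhg11*, *Miat* and *Malat1*. The kit was made for messenger RNA and *Malat1* has no conventional poly(A) tail. Its capture may therefore differ, and its last place cannot be read as the lowest abundance. Together the 4 RNAs took 0.159%, 0.0534% and 0.0775% of the reads in KO1011, KO1012 and KO1013, against 0.174%, 0.0756% and 0.0957% in WT1011, WT1012 and WT1013. Whether a tissue sample held fewer cells that make an RNA or less of that RNA per cell cannot be told apart in bulk libraries.

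Across codes the folds were alike for the 4 RNAs. KO1011 exceeded KO1012 by 3.23 times for *Meg3*, 2.89 times for *Snhg11*, 2.47 times for *Malat1* and 3.28 times for *Miat*. WT1011 exceeded WT1012 by 2.48, 2.16, 2.75 and 2.30 times for the same RNAs. Code 1013 lay closer to code 1012: KO1013 was 1.40 to 1.56 times KO1012, and WT1013 was 1.17 to 1.52 times WT1012. The order 1011 over 1013 over 1012 held for 4 of 4 RNAs in both genotypes, an order found in 12.4% of the 12863 genes tested, those averaging at least 1 FPKM. The reverse order held for 1520 of those genes. Since the RNAs were chosen for this variation, nothing is read from the count.

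As a measure of size, the mean of log2(FPKM + 1) was taken per code and the lowest of the 3 subtracted from the highest. This range was 1.49 for *Meg3*, 1.39 for *Miat*, 1.30 for *Snhg11* and 1.29 for *Malat1*. Over the 12863 genes its median was 0.20 and its 99th percentile 0.98, and the 4 RNAs ranked 13, 23, 35 and 37 in it. *Miat* had a range of 1.64 within KO libraries alone and 1.15 within WT libraries alone.

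The 4 profiles were compared by the Euclidean distance between their 6 deviations from the gene mean on the log2(FPKM + 1) scale. *Meg3* and *Snhg11* were nearest, at 0.20. *Malat1* lay 0.41 from *Snhg11* and 0.46 from *Meg3*. *Miat* lay farthest from the rest, at 0.50 to 0.56. The mean deviation of the 4 was 0.69 in KO1011, -0.81 in KO1012 and -0.27 in KO1013, against 0.82 in WT1011, -0.41 in WT1012 and -0.01 in WT1013.

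The comparison of genotypes, a contrast that the choice of the 4 RNAs did not use, asked whether loss of *Chrdl1* came with other levels of these RNAs. *Meg3*, *Snhg11* and *Malat1* were lower in the KO library of all 3 pairs, and *Miat* was lower in 2 of 3. None of the 4 passed the test across all genes. *Meg3* averaged 99.8 ± 61.5 FPKM in KO and 129 ± 63.3 FPKM in WT libraries (SD, n = 3 each), and the log2 difference by limma was -0.43 ± 0.45 (SE, 95% interval -1.48 to 0.62, adjusted p = 1). Each genotype holds 1 library of every code, so the variation between codes for which the RNAs were chosen is part of this spread and widens the interval.

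*Snhg11* averaged 82.4 ± 46.5 FPKM in KO and 102 ± 44.3 FPKM in WT libraries, a log2 difference of -0.37 with a 95% interval from -1.31 to 0.57 (limma, adjusted p = 1). *Malat1* averaged 13.1 ± 5.81 FPKM in KO and 16.2 ± 8.33 FPKM in WT libraries, a log2 difference of -0.26 with an interval from -1.15 to 0.63 (limma, adjusted p = 1). *Miat* averaged 23.4 ± 14.5 FPKM in KO and 21.9 ± 9.32 FPKM in WT libraries, a log2 difference of 0.01 with an interval from -0.98 to 0.99 (limma, adjusted p = 1). These intervals leave room for changes of either sign. Of all 12863 genes, 1 was called (0.00777%), 81 had an unadjusted p under 0.05, and the median log2 difference was 0.005. No RNA of the 4 had genotypes that did not overlap, which 2.95% of all tested genes had. Exact 2-sided permutation tests over the 20 labellings of the 6 libraries, which cannot go below 0.1, gave p = 0.5 for *Meg3* and *Snhg11*, 0.6 for *Malat1* and 1 for *Miat*.

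Leaving out 1 library takes 1 code from 1 genotype only, and the values then shifted. Without 1 library the fit moved the log2 difference of *Meg3* to between -0.90 and -0.06 and that of *Snhg11* to between -0.80 and -0.04. For *Malat1* it turned positive without KO1012 (0.04) or WT1011 (0.11), and for *Miat* it turned negative without KO1011 (-0.45), WT1012 (-0.26) or WT1013 (-0.03). Fits with both libraries of a code left out, which keeps the codes balanced, were chosen after seeing the data. In them the log2 difference was -0.53 to -0.34 for *Meg3*, -0.47 to -0.26 for *Snhg11* and -0.29 to -0.20 for *Malat1*, and -0.14 to 0.11 for *Miat*.

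Libraries of the same code deviated together over all genes, so the difference within codes is given too. As a percentage of the WT library of the same code, *Meg3* in KO stood at 84.4% for code 1011, 64.8% for code 1012 and 73.7% for code 1013. *Snhg11* stood at 88.2%, 65.8% and 78.6% in the same codes. *Malat1* stood at 76.1%, 85.0% and 87.2%. For *Meg3* and *Snhg11* code 1012 held the widest gap and code 1011 the narrowest, and for *Malat1* code 1011 held the widest. *Miat* in KO stood at 124% of WT for code 1011, 86.7% for code 1012 and 93.9% for code 1013.

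With the code as a replicate block in limma, the 95% intervals of the log2 difference narrowed to -0.59 to -0.27 for *Meg3*, -0.54 to -0.20 for *Snhg11*, -0.39 to -0.13 for *Malat1* and -0.20 to 0.22 for *Miat*. The unadjusted p of *Meg3* was 0.000326, and 6 genes, *Meg3* among them, had a p at least that small. Its adjusted p over all genes was 0.611 in limma. For the other 3 the adjusted p was 0.999 in the same fit, with unadjusted values of 0.00133 for *Snhg11*, 0.00221 for *Malat1* and 0.945 for *Miat*. The blocked fit called 1 gene of 12863 (0.00777%) and gave 503 genes an unadjusted p under 0.05. Over pairs an exact permutation test cannot go below 0.25, the value it gave for *Meg3*, *Snhg11* and *Malat1*. Being lower in KO in 3 of 3 pairs was shared by 9.59% of all tested genes.

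**Figure D2:**
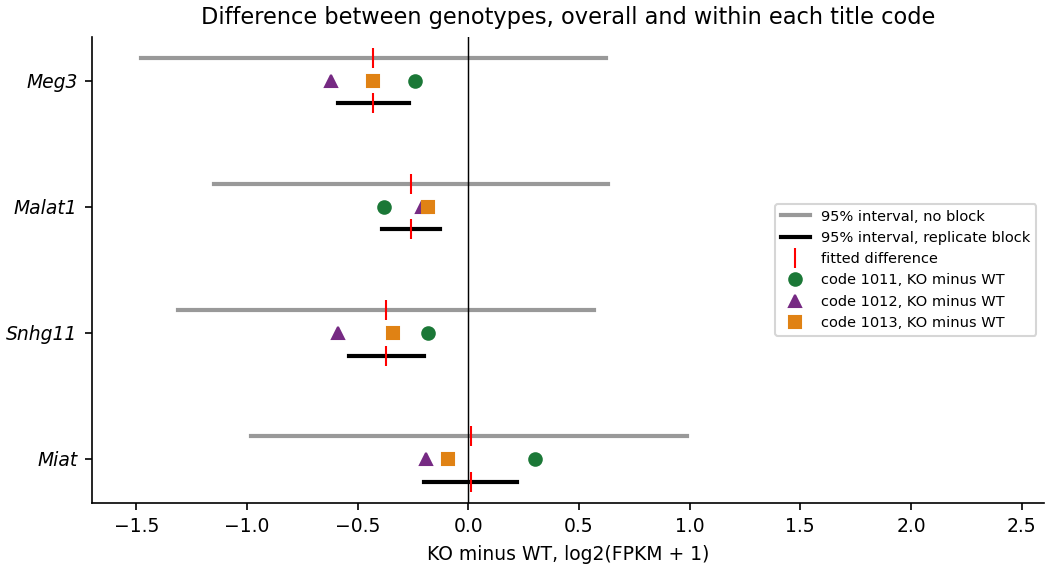
Difference KO minus WT in log2(FPKM + 1) for each RNA. Grey bars give the 95% interval of limma without a block, black bars that with the replicate block, red ticks the fitted difference, and coloured symbols the difference within each title code. All 4 grey bars cross 0. The black bars of *Meg3*, *Malat1* and *Snhg11* do not, and none of the 4 RNAs had a limma p, adjusted over all genes, below 0.611.

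Striatal neuron markers were also lower in KO libraries of some codes. All 10 had a negative log2 difference, with a median of -0.66, and none was called by limma. Their median deviation was 0.53 in KO1011, -0.86 in KO1012 and -0.59 in KO1013, against 0.44 in WT1011, 0.19 in WT1012 and 0.55 in WT1013. For *Meg3* and *Snhg11* the gap within the pair was likewise wider in codes 1012 and 1013 than in code 1011, whereas for *Malat1* it was widest in code 1011, with log2 differences of -0.38 at code 1011, -0.21 at code 1012 and -0.18 at code 1013. Oligodendrocyte markers had a median log2 difference of -0.17 and again none was called. None of the striatal or oligodendrocyte markers was at 0 in any library. The part of these cell types in the levels of the 4 RNAs was not tested.

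The variation between codes was set against 40 other long noncoding RNAs, of which 38 had a row and 22 a mean of 1 FPKM or more. Of these 22, none was called between genotypes, 8 had a positive and 14 a negative log2 difference, and the median was -0.05. Their median range over codes was 0.35, and 4 of them had the order of the 4 RNAs in both genotypes, beside 12.4% of all tested genes. *Oip5os1*, listed as 1700020I14Rik and known as Cyrano, the RNA that directs decay of the microRNA miR-7, had the largest range of this list, 1.71. It stood at 57.0, 18.7 and 32.9 FPKM in KO1011, KO1012 and KO1013, against 59.9, 15.7 and 36.1 FPKM in the WT libraries of the same codes. *Mir124a-1hg*, a host transcript of the neuronal microRNA miR-124, had a range of 1.13 and stood at 28.1, 10.1 and 15.1 FPKM in KO1011, KO1012 and KO1013, against 25.1, 13.2 and 14.9 FPKM in WT1011, WT1012 and WT1013. *Firre*, a nuclear RNA of the X chromosome, had a range of 0.79.

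Other RNAs of the list, nuclear ones included, did not take that order. *Neat1* is an RNA of paraspeckles, and its counted row of 3184 exon bases lies 39625 bases from *Malat1*. Any longer *Neat1* transcript was not measured as such. The row stood at 3.59, 3.50 and 2.58 FPKM in KO1011, KO1012 and KO1013, against 3.49, 3.44 and 2.55 FPKM in WT1011, WT1012 and WT1013. It was lowest at code 1013 in both genotypes. *Tug1* had a range of 0.21 and *Mir22hg* 0.07. By unadjusted p, *Ipw*, an imprinted RNA of the Prader-Willi region, came first in the list with a log2 difference of -0.53 (limma, unadjusted p = 0.00083, adjusted p = 1). It stood at 0.910, 0.602 and 0.781 FPKM in the 3 KO libraries and at 1.40, 1.66 and 1.58 FPKM in the 3 WT libraries. These values did not overlap, as for 2.95% of all tested genes. *Ipw* is a low gene that reached a mean of 1 FPKM only through its WT libraries, so nothing is read from the gap. *Bvht* followed with a log2 difference of 0.34 (limma, unadjusted p = 0.0121, adjusted p = 1).

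**Figure D3:**
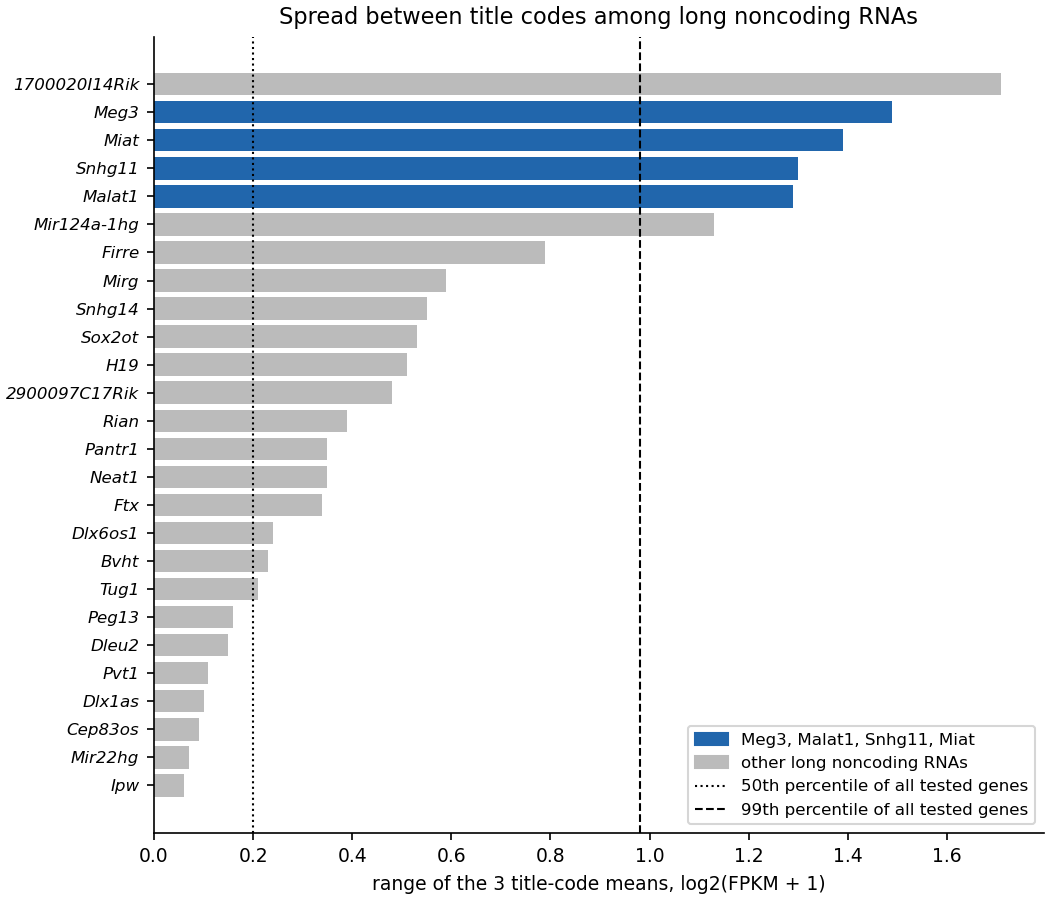
Range of the 3 title-code means in log2(FPKM + 1) for the 4 RNAs (blue) and for the 22 other long noncoding RNAs with a mean of 1 FPKM or more (grey). Lines mark the median (0.20) and the 99th percentile (0.98) over 12863 genes. The 4 RNAs, which were chosen for this variation, lie between *Oip5os1* (listed as 1700020I14Rik) at 1.71 and *Mir124a-1hg* at 1.13.

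Rows around each locus were examined next. Of the Dlk1-Dio3 domain, 5 of 7 other genes reached a mean of 1 FPKM, none was called, and none had the order of *Meg3*. Over all tested genes 12.4% had that order. *Rian*, a maternal noncoding RNA of the same domain that hosts small nucleolar RNAs, stood at 126, 99.98 and 122 FPKM in KO1011, KO1012 and KO1013, against 131, 101 and 143 FPKM in WT1011, WT1012 and WT1013, a range over codes of 0.39. *Mirg*, the microRNA host RNA further along, had a range of 0.59 and stood at 7.69, 3.81 and 5.96 FPKM in the KO libraries, against 8.21, 6.37 and 6.12 FPKM in the WT libraries. *Dlk1*, the paternally expressed Notch ligand homologue, was lowest at code 1013 with 0.674 FPKM in KO and 0.841 FPKM in WT. *Rian* and *Mirg* were thus highest or near highest at code 1011, as *Meg3* was, with smaller ranges.

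The row of *Mir770*, a microRNA hairpin within the *Meg3* span on the same strand, followed *Meg3* with a range of 1.39. It stood at 20.4, 6.40 and 17.9 FPKM in KO1011, KO1012 and KO1013, against 27.8, 11.1 and 16.9 FPKM in WT1011, WT1012 and WT1013, on 19 to 71 reads per library. The libraries were made for messenger RNA and the row overlaps the *Meg3* transcription unit, so its reads cannot be told apart from those of a longer *Meg3* transcript. The 10 genes around *Malat1*, *Neat1* among them, had a median range of 0.26, and none had its order, beside 12.4% of all tested genes. Next to *Snhg11*, *Snhg17* at 14116 bases and *Ralgapb* at 23708 bases had its order in both genotypes, with ranges of 0.29 and 0.22. *Cryba4* and *Crybb1*, the measured crystallin genes beside *Miat*, had ranges of 0.41 and 0.30 and another order.

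Small nucleolar RNA host genes, the class of *Snhg11*, were examined as a list. Of 19 listed, 14 reached a mean of 1 FPKM. None was called, the median log2 difference was -0.02, and the median range over codes was 0.25, beside 0.20 over all tested genes. *Snhg14* had the largest range, 0.55, followed by *Snhg10* with 0.42 and *Gas5* with 0.33. *Snhg17* alone of the 14 had the order of *Snhg11*, which 12.4% of all tested genes had.

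Proteins that build speckles and paraspeckles or bind the 4 RNAs had a median range of 0.20, that of all genes. Of the 22, none was called, and 5 had a positive and 17 a negative log2 difference with a median of -0.03. The order of the 4 RNAs held for 6, beside 12.4% of all tested genes. *Srrm2*, a scaffold of nuclear speckles, had the largest range, 0.92, with 47.3, 27.5 and 29.6 FPKM in KO1011, KO1012 and KO1013, against 59.5, 27.6 and 30.9 FPKM in WT1011, WT1012 and WT1013. *Srsf5* had a range of 0.60. The known partners of *Miat* varied less, with ranges of 0.06 for *Sf1*, 0.20 for *Celf3* and 0.21 for *Qk*. *Ezh2*, the catalytic subunit of Polycomb repressive complex 2, had a range of 0.19.

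Transcripts known to keep introns in the nucleus were set beside the 4 RNAs as another class of RNA known to be nuclear. Of 22 such genes, none was called between genotypes, the median log2 difference was -0.07, the median range over codes was 0.38, and 9 had the order of the 4 RNAs in both genotypes. The list's median deviation was 0.22 in KO1011, -0.16 in KO1012 and -0.08 in KO1013, against 0.21 in WT1011, -0.04 in WT1012 and -0.03 in WT1013. *Leng8* had the largest range, 1.44, with 30.8, 11.7 and 13.6 FPKM in KO1011, KO1012 and KO1013, against 38.7, 12.6 and 17.2 FPKM in WT1011, WT1012 and WT1013. *Pnisr* had a range of 0.98 and *Clk1*, a kinase of splicing factors, 0.69. *Rbm39*, *Tra2a* and *Luc7l* each had a range of 0.05. The deposited values count exons, so intron reads of these genes were not examined.

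Other genes, listed ones included, were then ranked by the distance of their profile to the mean profile of the 4 RNAs. This drew on the 12734 tested genes of at least 200 exon bases. The 8 nearest were 1700110K17Rik at 0.31, *Zbed6* and *Leng8* at 0.35, *Mir124a-1hg* at 0.36, *Robo3* at 0.37, *Htr2a* at 0.39, and *Dgkh* and *Kcna3* at 0.40. *Robo3* encodes an axon guidance receptor, *Htr2a* the serotonin receptor 2A, *Dgkh* a diacylglycerol kinase and *Kcna3* a voltage-gated potassium channel. *Htr2a* stood at 5.60, 1.68 and 3.11 FPKM in KO1011, KO1012 and KO1013, against 5.76, 2.04 and 4.10 FPKM in WT1011, WT1012 and WT1013. *Kcna3* stood at 4.94, 1.21 and 2.01 FPKM in the KO libraries, against 4.89, 1.05 and 2.42 FPKM in the WT libraries. Both protein-coding and noncoding genes were among the 8, and *Leng8* and *Mir124a-1hg* also stand in the lists above.

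Each RNA also had nearest genes of its own. *Leng8* was nearest to both *Meg3* (0.41) and *Snhg11* (0.40), with *Dok6* at 0.51 following for *Meg3* and *Rnpc3* at 0.43 for *Snhg11*. *Robo3* was nearest to *Malat1* at 0.25, followed by *Kcnh7*, a potassium channel gene, at 0.29 and *Zfp369* at 0.30. 1700110K17Rik was nearest to *Miat* at 0.28, followed by *Zbed6* and *Mir124a-1hg* at 0.31.

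The mirrored profile, low at code 1011 and high at code 1012, was approached most by the noncoding 3300002P13Rik at 0.34. It stood at 12.4, 29.0 and 21.5 FPKM in KO1011, KO1012 and KO1013, against 11.1, 28.1 and 17.5 FPKM in WT1011, WT1012 and WT1013. *Dpysl2*, which encodes the cytoskeletal protein CRMP2, followed at 0.55 with 34.1, 65.0 and 56.7 FPKM in the KO libraries, against 33.6, 69.8 and 53.2 FPKM in the WT libraries. The ribosomal protein gene *Rpl37* lay at 0.56, though reads of its near-identical copies make that row uncertain. *Igip*, *Purg*, AI414108, *Fbxl22* and D330041H03Rik completed the 8, at 0.57 to 0.62.

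**Figure D4:**
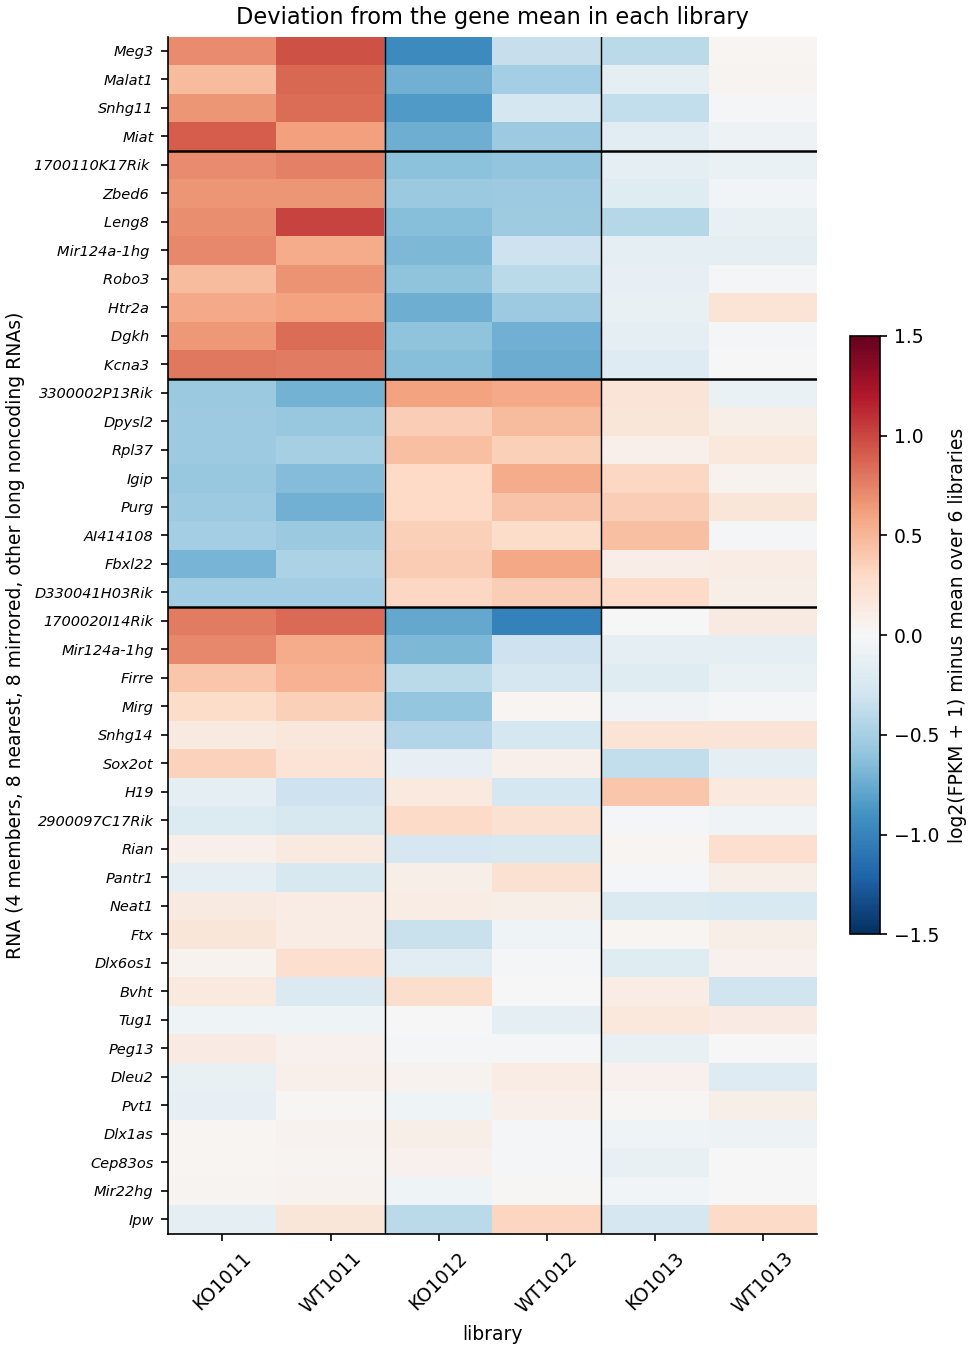
Deviation of log2(FPKM + 1) from the gene's mean over 6 libraries (red above, blue below), with libraries in columns grouped by title code and genes in rows. From the top the blocks hold the 4 RNAs, the 8 genes nearest to their mean profile, the 8 nearest to the mirrored profile, and the 22 other long noncoding RNAs by falling range (*Mir124a-1hg* stands in 2 blocks). The upper blocks are red in KO1011 and WT1011 and blue in KO1012 and WT1012, whereas most other long noncoding RNAs, *Neat1* and *Tug1* among them, are pale.

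Several library properties varied with the code. The share of reads in exons was 84.9% in KO1011 and 84.8% in WT1011, and 86.2% to 87.0% in the other 4 libraries. Short genes were lower and long genes higher at code 1011: for the 993 tested genes of 200 to under 1000 exon bases the median deviation was -0.09 in KO1011, 0.06 in KO1012 and 0.01 in KO1013, against -0.16 in WT1011, 0.13 in WT1012 and 0.05 in WT1013. For the 517 genes of at least 8000 bases it was 0.05, -0.06 and 0.03 in the KO libraries, against 0.10, -0.12 and -0.01 in the WT libraries. Ribosomal protein genes had a median deviation of -0.12, 0.05 and 0.07 in the KO libraries, against -0.19, 0.08 and 0.13 in the WT libraries, in the opposite direction to the 4 RNAs and with smaller values. Most of them have under 1000 exon bases, so this list and the class of short genes are not separate. Reads of near-identical copies also make such rows uncertain, as for *Rpl37*. The part of these properties in the levels of the 4 RNAs was not tested.

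Cell type markers differed by code to unequal degrees. Oligodendrocyte markers had median deviations of 0.31, 0.02 and -0.63 in KO1011, KO1012 and KO1013, against 0.13, 0.48 and -0.37 in WT1011, WT1012 and WT1013, lowest at code 1013 in both genotypes. By median deviation, given above, striatal neuron markers had the order of the 4 RNAs in KO but not in WT libraries. Their summed FPKM did not have it in KO either, at 135 in KO1012 and 131 in KO1013. Blood cell markers had the order in KO but not in WT libraries. Their median deviations were 1.37, -0.07 and -0.52 in KO1011, KO1013 and KO1012, against -0.08, -0.51 and -0.30 in WT1011, WT1013 and WT1012. The part of these markers in the levels of the 4 RNAs was not tested. Pan-neuronal markers had median deviations of -0.07 to 0.06 over the 6 libraries, cortical excitatory neuron markers -0.05 to 0.06 and astrocyte markers -0.06 to 0.10. Immediate early genes, which rise with neuronal activity, were highest at code 1012, with 0.28 in KO1012 and 0.31 in WT1012, and lowest at code 1013, with -0.18 in KO1013 and -0.36 in WT1013. Their order over codes was not that of the 4 RNAs.

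**Figure D5:**
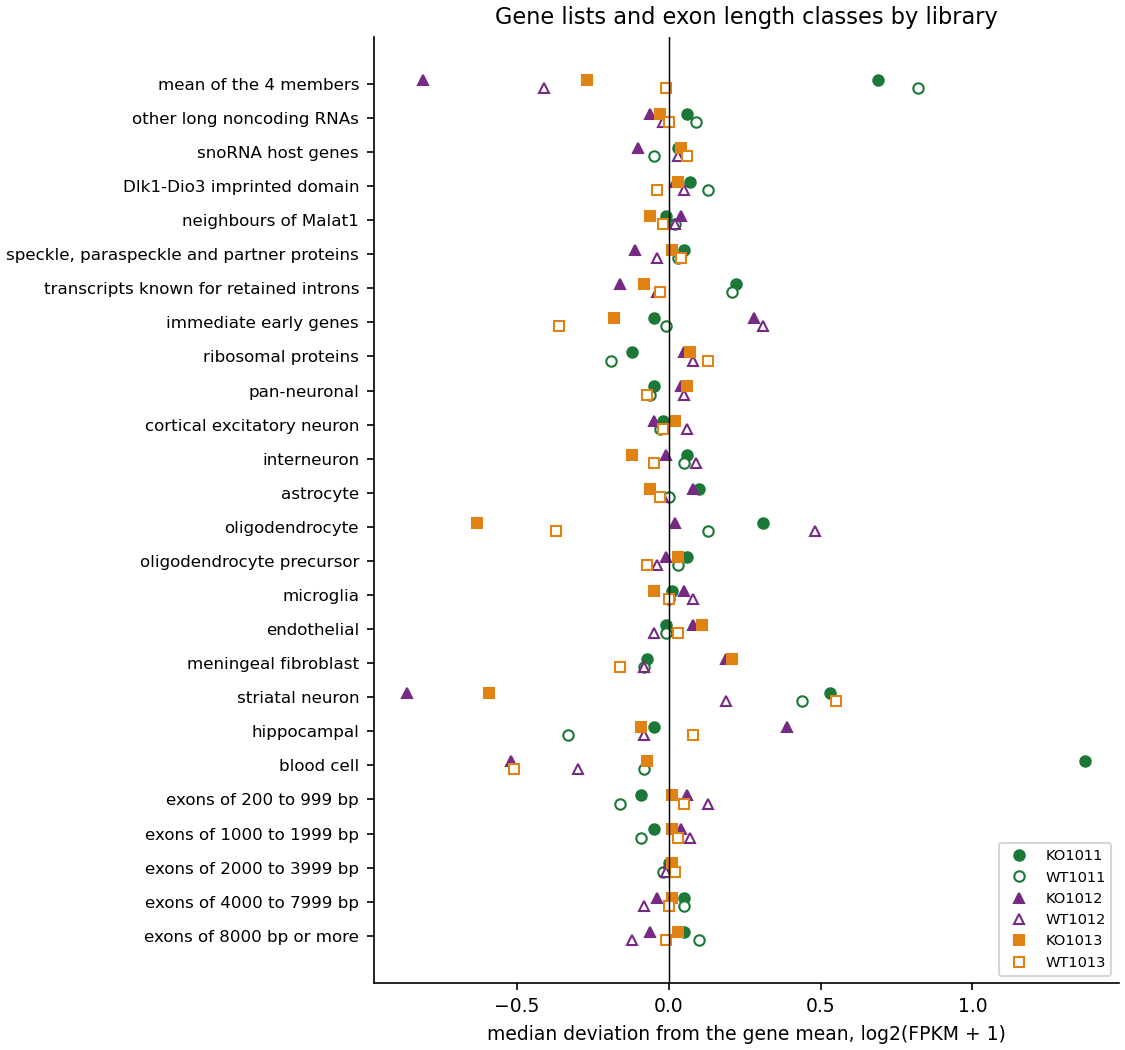
Median deviation from the gene mean in log2(FPKM + 1), per library, for the mean of the 4 RNAs, for gene lists and for classes of exon length (filled symbols KO, open symbols WT, colours by title code). The choroid plexus list, of which 1 gene was tested, is left out. The 4 RNAs spread from -0.81 to 0.82, while most lists lie near 0. The lists of retained introns and of other long noncoding RNAs have the order of the 4 RNAs in both genotypes, with smaller deviations. So do the classes of 4000 exon bases or more. The striatal and blood cell lists have that order in KO but not in WT libraries, and the oligodendrocyte list has it in neither.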

How the data were processed

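Whole visual cortex RNA was sequenced in 6 libraries, grouped as KO and WT by the labels. The authors deposited FPKM values for 24453 genes, made per the file headers with HOMER over exons of mm10, with the transcripts of a gene condensed to 1 row. The submitters' processing notes name HOMER 4.8.3, FastQC and STAR 2.4.0k. The header command names 12 libraries, of which the other 6 are not analysed here, and gives no strand option, so overlapping genes are uncertain. Depth was recovered from FPKM steps, with 100.0% of 4897 to 7147 low values per library whole within 0.1 read.

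limma 3.58.1 (R 4.3.3) was fitted to log2(FPKM + 1) with an intensity trend, 2-sided, on the 12863 genes averaging at least 1 FPKM, and adjusted by Benjamini-Hochberg over all of them. This scale understates changes of low genes. The fit was tested on simulated data. Differences are KO minus WT. Same-code libraries correlated in their deviations from group means (0.71, 0.67 and 0.43, against -0.61 to -0.06 for other pairs), so the code was also fitted as a block, although the labels do not state what it marks. Deviations within a genotype cancel out, which pushes the values of other pairs down, so those values are not separate evidence. No duplicate libraries were found (lowest chi-square per degree of freedom 2.8). For a gene of 2000 bases, 3 reads, the upper limit of a count of 0, equal 0.0393 to 0.0662 FPKM, and such limits cover counting error only.

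The 4 RNAs and the 21 gene lists were chosen with earlier results of these data known. Genes named are the 4 RNAs, listed genes of smallest p or largest range, neighbouring rows, and the 8 nearest profiles (3 per RNA). *Tug1*, *Mir22hg*, the *Miat* partners, *Ezh2*, *Rbm39*, *Tra2a*, *Luc7l* and the cortical examples were named after their values were seen. Promoter sequences are RefSeq's on GRCm38.p6, matched by symbol for 4 of 4 RNAs. Other computing used scipy 1.17.1, matplotlib 3.10.9, pandas 2.3.3 and numpy 2.4.6 under Python 3.11.15.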

Additional observations from a re-analysis of the deposited data

How the results depend on the processing

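No call for the 4 RNAs changed under any of 17 alternatives each, with a lowest adjusted p in limma of 0.611 for *Meg3* and 0.999 for the others. The KO minus WT difference was negative in 17 of 17 alternatives for *Meg3* and *Snhg11*, 15 for *Malat1* and 5 for *Miat*. Leaving out 1 library gave -0.897 to -0.06 for *Meg3*, -0.577 to 0.108 for *Malat1*, -0.796 to -0.04 for *Snhg11* and -0.446 to 0.372 for *Miat*. *Malat1* reversed without KO1012 (0.04) and WT1011 (0.108), and *Miat* without KO1011 (-0.446), WT1012 (-0.261) and WT1013 (-0.034), with median-of-ratios size factors (-0.001) and, chosen after seeing the data, with both libraries of code 1011 left out (-0.139). With both libraries of any code left out, the difference stayed negative for *Meg3* (-0.526 to -0.339), *Snhg11* (-0.468 to -0.261) and *Malat1* (-0.294 to -0.197). All fits without a code, their gene counts below included, were chosen after seeing the data. The cause of the reversals was not tested. With the replicate block the values were -0.432 for *Meg3*, -0.257 for *Malat1*, -0.372 for *Snhg11* and 0.006 for *Miat*, and no call changed. The range of *Miat* over codes was 1.636 in KO libraries alone and 1.148 in WT libraries alone, against 1.392 in all. Genes called over the whole table numbered 1 in the main analysis and 1 with the replicate block, 1 to 4 with 1 library left out (4 without KO1011), 2 with a pseudocount of 0.1, 6 with no filter on low values (19781 genes tested), 0 among genes averaging at least 5 FPKM (8811 genes tested in limma, 34 with unadjusted p under 0.05), 0 without code 1011 (201 with unadjusted p under 0.05) and 0 without code 1013 (29). *Chrdl1*, the gene called in the main analysis, averaged 0.161 FPKM in KO and 3.44 FPKM in WT libraries. The filter of 5 FPKM therefore removed it before testing. Genes called in the lists were 0 without and 0 with the replicate block, the single alternative run for them. With 3 libraries per genotype and within-genotype spreads of this size, the intervals without a block reach about 1 on the log2 scale in either direction for *Miat*.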
